A study of Mus musculus with 4 samples.

Results

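A set of 10 genes of the visual cycle and of retinol transport was followed in lens epithelia of mice after ultraviolet B (UVB) irradiation. They were Rpe65, Lrat, Rgr, Rdh5, Rdh10, Rdh12, Rlbp1, Rrh, Stra6 and Ttr, 10 of 19938 genes to which the arrays gave an own probe set. The genes were listed by their role, and each had 1 such probe set. Total RNA came from lens epithelia of male C57BL/6 mice aged 8 weeks, taken 24 h after the right eye had received 30 mJ/cm2 of UVB. The left eyes of the same animals, shielded by foil, gave the controls, so that both groups shared anesthesia, age and strain. Each of 2 experiments supplied 1 control and 1 UVB array, or 4 arrays in all. Animal experiments used 3 mice each, and it is not stated whether the RNA of an array was pooled.

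In the visual cycle, the chromophore of rod and cone opsins is released as all-trans-retinal after light and made anew as 11-cis-retinal. Photoreceptors reduce the aldehyde to retinol, and cells of the retinal pigment epithelium (RPE) esterify it, isomerize it and oxidize the product. Retinol arrives from the blood bound to a carrier and leaves or enters cells through a membrane receptor. Most of these genes are known as markers of the RPE, whereas lens cells are normally described by crystallins and by factors such as Foxe3.

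Values are log2 signals as deposited, on which a difference of 1 is a factor of 2, and probe sets differ in how brightly they hybridize, so that levels are not compared between genes. The 12 measured lens genes, Foxe3 and Cryaa among them, all had control signals above the array median, which was 7.19 to 7.22 on the 4 arrays. UVB and control were compared with limma over all 28944 probe sets. A gene was called upregulated when it passed the study's thresholds, above 1.8-fold and an unadjusted p below 0.01, and calls at an adjusted p below 0.05 are given beside this. In 100% of the probe sets the sum of the 2 arrays of experiment 1 equalled that of experiment 2 within 0.01. The comparison therefore holds 1 independent deviation per gene rather than 2, and limma's p-values without pairing are too small. For that reason the result from a fit that pairs the eyes, with experiment as a block, is given as well. An exact permutation test of 2 against 2 arrays allows no p below 0.333.

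All 10 genes had higher signals after UVB in both experiments, and 4 of them, Rpe65, Ttr, Rgr and Rdh12, passed the thresholds. The median log2 fold change of the 10 genes was 0.88, against a median of -0.02 over all probe sets. Among all probe sets, 0.111% were called upregulated and 24% were higher in both experiments. At an adjusted p of 0.05, 7 of the 10 were higher in limma, beside 6.62% of all probe sets. With the experiment as a block, the same 4 genes passed the thresholds, beside 0.0622% of all probe sets. In that fit 0 of the 10 had an adjusted p below 0.05 in limma, as did 0% of all probe sets, and 8 were higher at an unadjusted p under 0.05, beside 5.69%. Since experiment sums were equal, a gene that is higher in both experiments also has both UVB arrays above both control arrays, which adds nothing to the count. More cells of a type and more RNA per cell cannot be told apart in such samples.

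Rpe65 and Rgr, which act in making the 11-cis isomer in the RPE, had 2 of the 3 largest increases of the 10 genes, beside Ttr. Rpe65, the isomerohydrolase that turns retinyl esters into 11-cis-retinol, had log2 signals of 7.24 and 7.40 in the control arrays of experiments 1 and 2 and of 9.12 and 8.96 in the UVB arrays. Both UVB arrays lay more than 1.5 above both controls. The mean rose from 7.32 ± 0.11 (SD, n = 2 arrays) to 9.04 ± 0.11 (SD, n = 2), a 3.29-fold change with a standard error of 0.095 on the log2 scale (limma's unadjusted p = 5.22e-04, or 0.00290 with the block). As experiment sums were equal, both SDs reflect the same deviation, and spread between the experiment means is not in them. By mean log2 fold change, Rpe65 ranked 1 of the 28944 probe sets, Ttr 2, Rgr 4 and Lrat 6.

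Rgr encodes an opsin-like receptor of the RPE that binds all-trans-retinal and takes part in forming the 11-cis isomer in light. Its control signals were 8.97 and 9.14, and its UVB signals were 10.71 and 10.54. The increase was 2.97-fold, or 1.57 ± 0.10 (standard error) on the log2 scale. Limma's unadjusted p was 7.99e-04, and 0.00400 with the block.

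Lrat, the acyltransferase that makes the retinyl esters on which Rpe65 acts, stood at 6.87 and 7.27 in control and at 8.63 and 8.24 in UVB-irradiated epithelia. Experiment 1 gave a difference of 1.76 and experiment 2 gave 0.97 on the log2 scale. The mean fold was 2.58 with a standard error of 0.23 (log2), and limma's unadjusted p of 0.0119 missed the threshold.

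The retinol dehydrogenases Rdh5, Rdh12 and Rdh10 had increases of 1.81-fold, 1.87-fold and 1.28-fold. Rdh5, the 11-cis-retinol dehydrogenase of the RPE, had control signals of 7.52 and 7.83 and UVB signals of 8.69 and 8.37. Experiment 1 gave 1.17 and experiment 2 gave 0.54, so that the mean was just past the fold threshold, and the unadjusted p of 0.0223 from limma missed its threshold. Rdh12, which reduces all-trans-retinal in photoreceptors, had control signals of 7.40 and 7.32 and UVB signals of 8.22 and 8.30. The mean difference of 0.90 (standard error 0.048, log2) passed both thresholds with and without the block. Its fold was 1.77 in experiment 1 alone and 1.97 in experiment 2 alone.

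Rdh10 oxidizes all-trans-retinol and is also known for its role in retinoic acid synthesis outside the eye. Its signal was 9.60 in both control arrays and 9.96 in both UVB arrays, a difference of 0.36 in each experiment. This was the smallest increase of the 10 genes, yet its adjusted p from limma was 0.0210, its replicates being equal to the last deposited digit. With the block its adjusted p was 0.357, the lowest that any probe set reached in that fit, a value that 9 of the 10 genes shared.

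Carriers and receptors of retinoids also had higher signals after UVB, and Ttr had the largest difference among them. Ttr encodes transthyretin, which carries thyroxine and the complex of retinol with its binding protein. Its log2 signals were 9.14 and 9.09 in control and 10.71 and 10.75 in UVB arrays. The increase was 3.06-fold, with a standard error of 0.028 on the log2 scale, and the 2 experiments differed by 0.09 on the log2 scale.

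Rlbp1 encodes CRALBP, the binding protein of 11-cis-retinoids in RPE and Müller glia. It stood at 7.68 and 7.75 in control and at 8.45 and 8.39 in UVB epithelia, which is 1.63-fold and under the fold threshold (limma's adjusted p = 0.0215, or 0.357 with the block). Stra6, the membrane receptor through which retinol is taken up from its plasma carrier, moved from 8.25 and 8.47 to 9.07 and 8.84. Its fold was 1.77 in experiment 1 and 1.29 in experiment 2, with an unadjusted p of 0.0239 from limma. Rrh, an opsin relative of RPE microvilli also called peropsin, moved from 7.43 and 7.32 to 7.88 and 7.99, or 1.47-fold. None of these 3 genes passed the study's thresholds.

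**Figure D1:**
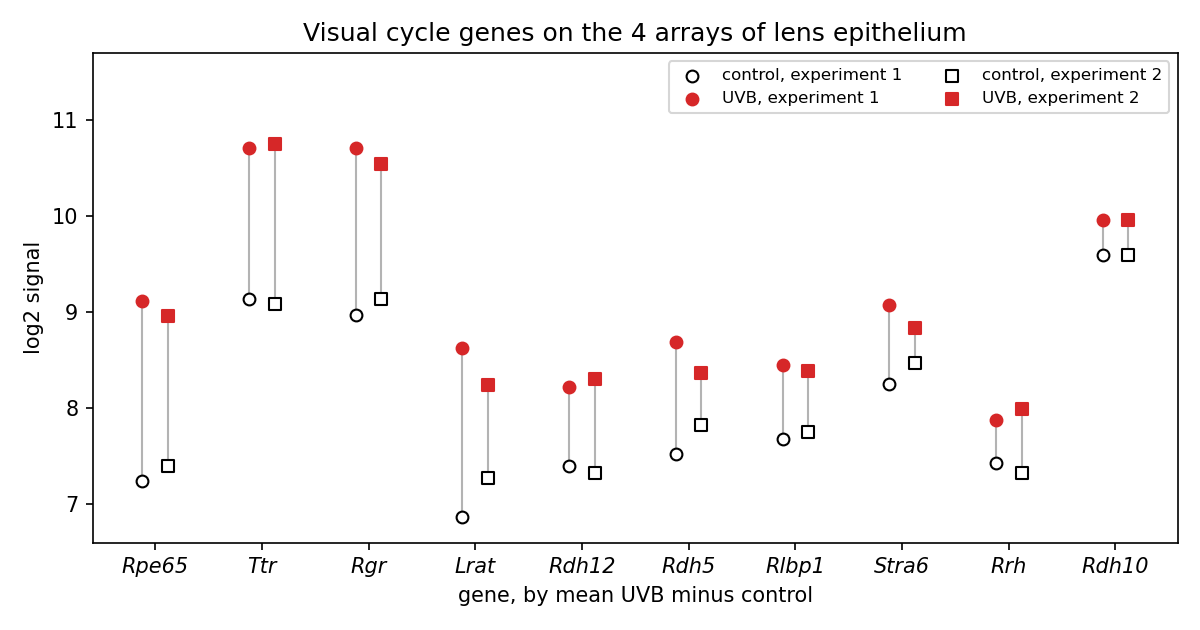
Log2 signals of the 10 visual cycle and retinol transport genes on the 4 arrays, ordered by mean difference; open symbols are control, red symbols are UVB, circles are experiment 1, squares are experiment 2, and lines join the arrays of an experiment. Every red symbol lies above its open partner, from a gap of 1.88 for Rpe65 in experiment 1 to 0.36 for Rdh10.

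The experiments did not give the same order of genes. In experiment 1 the median difference of the 10 genes was 0.995 and in experiment 2 it was 0.82. The difference was larger in experiment 1 for 6 genes, Lrat (by 0.79), Rdh5 (by 0.63), Stra6 (by 0.45), Rgr (by 0.34), Rpe65 (by 0.32) and Rlbp1 (by 0.13). It was larger in experiment 2 for 3 genes, Rrh (0.45 and 0.67), Rdh12 (0.82 and 0.98) and Ttr (1.57 and 1.66). Among all probe sets higher in both experiments, 47.5% had the larger difference in experiment 1. With 1 array per condition in each experiment, a difference between the experiments could not be tested.

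Several marker lists more often had the larger difference in experiment 2. Of 18 measured rod genes, 16 had the larger difference in experiment 2, with medians of 0.67 in experiment 1 and 1.09 in experiment 2. The same held for 7 of 8 ciliary body and iris genes (medians 0.21 and 0.595) and for 9 of 12 Müller glia genes (medians 0.035 and 0.06). The 16 other RPE and pigment genes were split evenly, 8 and 8. Otx2 (0.84 and 0.98) and Dct (0.77 and 0.98) were close to Rdh12, whereas Tyr had 0.72 and 0.57. Of 6 corneal genes, 5 had the larger difference in experiment 1, with medians of 0.595 and -0.16.

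**Figure D2:**
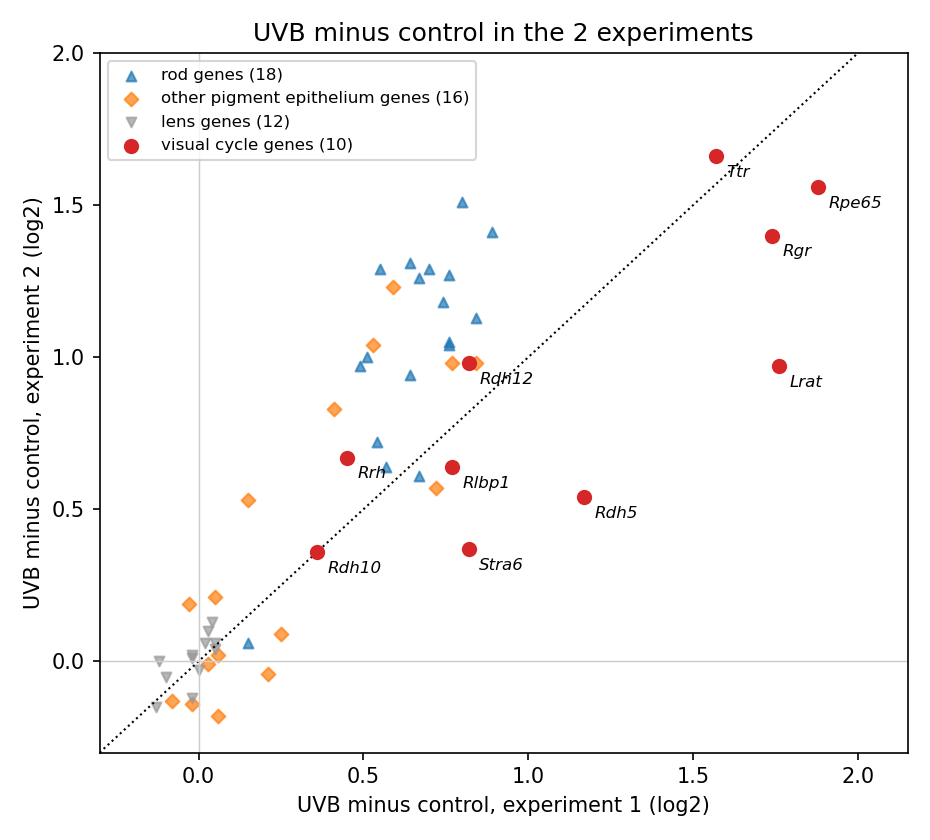
UVB minus control (log2) in experiment 1 on the horizontal and in experiment 2 on the vertical axis for the 10 visual cycle genes (red), 18 rod, 16 other pigment epithelium and 12 lens genes, with equal changes on the dotted line. Rpe65, Rgr, Lrat, Rdh5 and Stra6 lie to the right of the line, and 16 of the 18 rod genes lie above it.

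The RPE steps were then set against the photoreceptor step Rdh12. Ttr, Rpe65 and Rgr rose more than Rdh12, and Rdh10 and Rrh rose less. The test used the signal of each probe set minus that of Rdh12 on the same array, in limma over 28943 probe sets. Of these probe sets, 0.0242% had a larger and 99.4% a smaller change than Rdh12 at an adjusted p of 0.05, as most genes on the arrays hardly moved. With so many called, the adjustment hardly raised limma's p, from 0.00547 to 0.00569 for Rpe65. This fit has no pairing, so its p-values are too small for the reason given above. Because the signal of Rdh12 enters every difference, the spread that limma shares among probe sets is in part that of Rdh12.

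Rpe65 changed by 0.82 more than Rdh12 on the log2 scale (95% interval 0.43 to 1.21, limma's adjusted p = 0.00569), with 1.06 in experiment 1 and 0.58 in experiment 2. Rgr changed by 0.67 more (0.26 to 1.08, adjusted p = 0.0119). For Ttr the excess was 0.715 (0.61 to 0.82, adjusted p = 2.96e-04), 0.75 in experiment 1 and 0.68 in experiment 2. Rrh fell short of Rdh12, with a difference of -0.34 (-0.44 to -0.24), and Rdh10 did so with -0.54 (-0.69 to -0.39). These 5 differences had the same sign in both experiments.

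The other 4 genes were not distinguished from Rdh12 by this test, and their intervals were wide. Lrat had an excess of 0.465 (-0.29 to 1.22), made up of 0.94 in experiment 1 and -0.01 in experiment 2. Rdh5, which acts on the 11-cis isomer, differed from Rdh12 by -0.045 (-0.68 to 0.59), with 0.35 in experiment 1 and -0.44 in experiment 2. Rlbp1 differed by -0.195 (-0.44 to 0.05) and Stra6 by -0.305 (-0.80 to 0.19).

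The pairing changed which of these calls were made, and leaving out single arrays changed the size of the differences. With the experiment as a block, Lrat also passed as higher and Stra6 as lower than Rdh12, beside 99.7% of all probe sets called in either direction, but limma then gave every probe set the same standard error of 0.12. A fit by experiment without a shared spread, added after the data were seen, left 0 genes at an adjusted p of 0.05, and Ttr alone had an unadjusted p under 0.05 (interval 0.27 to 1.16). Leaving out the control or the UVB array of experiment 2 gave Lrat an excess of 0.705 or 0.70. Without the control or the UVB array of experiment 1, Stra6 differed by -0.455 or -0.46 and Rlbp1 by -0.27 or -0.265. Rdh5 then differed by -0.24 or -0.245. With equal experiment sums a left-out array follows from the arrays that remain, so these values are no separate check.

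**Figure D3:**
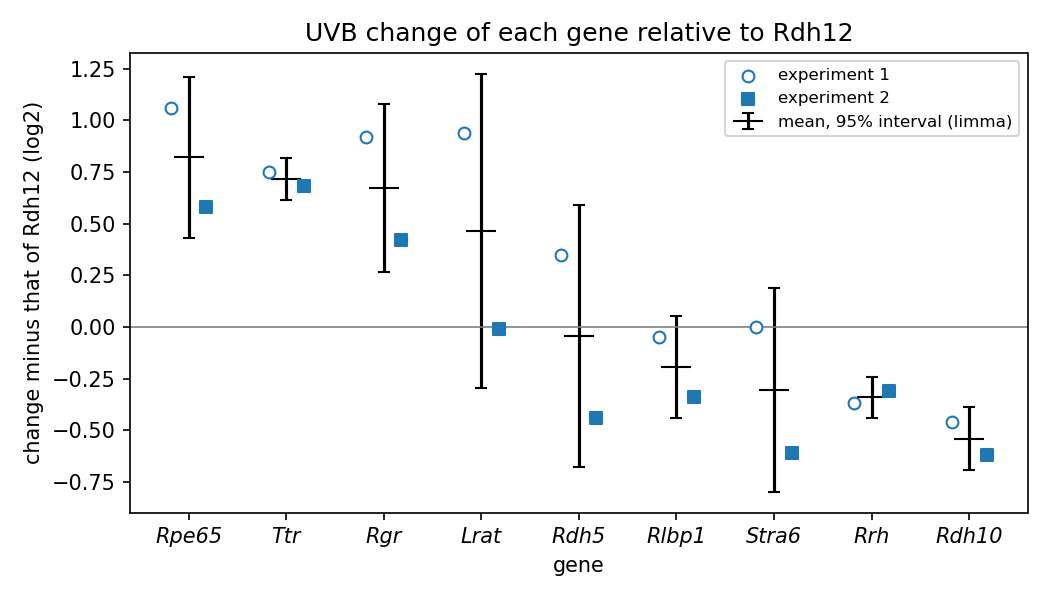
UVB minus control of each gene minus that of Rdh12 (log2), with open circles for experiment 1, filled squares for experiment 2, and bars for the mean and its 95% interval from limma without the block. The intervals of Rpe65, Ttr and Rgr lie above 0 and those of Rrh and Rdh10 below it.

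Of 26 further genes of retinoid metabolism, 2 passed the thresholds, Opn1mw and Abca4, and 1 of them, Opn1mw, with the block. Both belong to the 7 measured genes for retinoid steps in photoreceptors, of which 5 were higher in both experiments (median log2 fold change 0.67). Abca4, the transporter that clears retinal from outer segment discs, rose from 8.93 and 8.77 to 9.70 and 9.86, or 1.91-fold, but with the block its unadjusted p from limma was 0.0109. Opn1mw, the opsin of medium-wavelength cones, was upregulated 2.06-fold. Rdh11 and Rdh14, named here after their values were seen, had log2 fold changes of 0.04 and 0.02.

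Of 8 other retinoid enzymes, 0 were called in either direction by limma, and the median log2 fold change was 0.025. The largest changes there were in Bco2, a carotenoid-cleaving oxygenase, at -0.21, and in Degs1, a desaturase, at 0.08. Of 8 other carriers and receptors, 0 were called as well (median 0.005), with Lrp2, an endocytic receptor, at 0.29 and Crabp1, a binding protein of retinoic acid, at 0.28. In this group 3 genes were higher in both experiments. The 3 opsins outside image vision had log2 fold changes between -0.08 and 0.025, with Opn3 the lowest and Opn5 the highest. Of these 19 genes, 3 had an unadjusted p under 0.05 in limma without the block. The share of all probe sets at that p was not counted, so these 3 are not read as more or fewer than elsewhere on the arrays.

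Markers of other eye tissues were read on the same arrays, since these 10 genes are known mainly from the RPE and retina. Of 16 further RPE and pigment genes, 10 were higher in both experiments and 2 passed the thresholds (median log2 fold change 0.15). Otx2, a homeobox factor of RPE and photoreceptors, was 1.88-fold and Dct, a melanin enzyme, 1.83-fold higher, and Tyr, tyrosinase, was 1.56-fold higher at an adjusted p of 0.0224 from limma. The uncalled genes of this list ranged from -0.105 (Oca2) to 0.91 (Kcnj13) in log2 fold change. Among them Mitf had -0.06, Serpinf1 -0.08, Mertk 0.01, Best1 0.17 and Tyrp1 0.785. The summed signal of the 16 genes, on the log2 scale, was 12.17 to 12.24 in control and 12.48 to 12.58 in UVB arrays.

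All 18 measured rod genes were higher in both experiments, with a median of 0.91, and 6 passed the thresholds, or 3 with the block. Their summed log2 signal was 12.97 to 13.24 in control and 13.86 to 14.13 in UVB arrays, and the lowest control signal among them was 6.79, that of Gucy2f. Cnga1, a channel subunit, was 2.22-fold higher, Pde6a, a phosphodiesterase subunit, 2.02-fold, Gngt1, a transducin subunit, 1.98-fold, and Rcvrn, recoverin, 1.95-fold. Of these, Gngt1 passed with the block, and Cnga1, Pde6a and Rcvrn did not. All 9 cone genes were higher in both experiments, with a median of 0.28, and 1 of them, Opn1mw, passed the thresholds.

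Markers of further tissues had medians between -0.085 and 0.405. Of 12 genes of Müller glia, where Rlbp1 is also expressed, 5 were higher in both experiments and 0 were called by limma (median 0.0375), with Apoe at 0.47 and Slc1a3 at 0.465. Of 8 ciliary body and iris genes, 7 were higher in both experiments, with a median of 0.405. The medians were 0.23 for 6 corneal genes, 0.09 for 8 leukocyte genes, -0.085 for 8 blood vessel genes and -0.0025 for 12 lens genes. At an adjusted p of 0.05 in limma, at which 6.62% of all probe sets were higher and 11% lower, 3 leukocyte genes were higher and 1 lower, led by Cd68, a macrophage marker, at 0.59. Among blood vessel genes 1 was higher, Kdr at 0.385, and 2 were lower, and among ciliary body and iris genes 2 were higher and 1 lower, Aqp1 at -0.20. Of 6 corneal genes, 1 was lower, Aldh3a1 at -0.09. The summed log2 signal of the lens genes was 16.15 on each of the 4 arrays, and 1 of them, Foxe3, was lower (log2 fold change -0.14, limma's adjusted p = 0.0224, or 0.357 with the block). The part that RNA of RPE or photoreceptors has in the higher signals of the 10 genes was not tested.

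**Figure D4:**
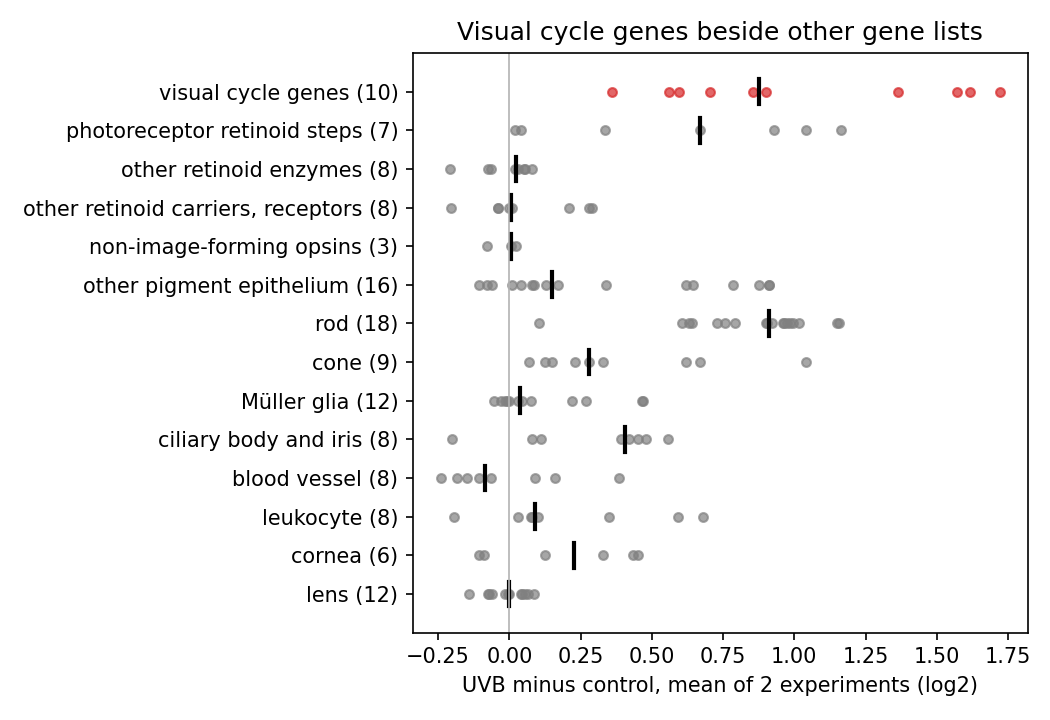
Mean UVB minus control (log2) of single genes in each list, with list medians as black bars and the number of measured genes in parentheses. The 10 visual cycle genes (red) lie between 0.36 and 1.72, and the 12 lens genes between -0.14 and 0.085.

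Patterns like those of Rpe65 and Rdh12 were looked for among the 19928 other genes, by the distance between the pairs of differences in experiments 1 and 2. The likeness rests on 2 values per gene and is a description only. Nearest to Rpe65 were Pon1 (1.65 and 1.28, distance 0.36), Srgn, Trf, Cltrn and Cnga1, in this order. Rdh12 had much closer neighbours. They were Impg1 (0.81 and 0.99, distance 0.014), Otx2 (0.020), Dct (0.050), Cdhr1 (0.080) and Pde6b (0.085).

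The study proposed Otx2 as a regulator of genes that respond to UVB, so the sequences before the starts of these genes were searched for TAATCC, the core motif that Otx2 and Crx recognise. RefSeq promoter sequences (GRCm38.p6) of 8 of the 10 genes are reported here, in 11 windows of 250 bases. None was at hand for Rdh10, and Ttr is not reported here. The motif or its reverse complement GGATTA stood in 2 of these 11 windows, those of Rpe65 and Rgr, beside 6.25% of all 32851 windows of this length. Both strands were read, and the motif differs from its own reverse complement. A match here is a run of letters and not a site shown to be bound, and no match in the window of the other 6 genes concerns these 250 bases alone. The windows of Rdh5, Rlbp1 and Stra6 lie inside the annotated spans of these genes, so they are not sequence upstream of the whole gene.

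Shown are the motif of Rpe65 with 12 bases on each side, the window of Rgr, which holds the motif too, and the windows of Lrat and Rdh12, a further RPE step and the photoreceptor step, which do not. Each runs 5′ to 3′ on the strand of the gene, the 3 windows up to the base before its start, with the motif in capitals. The annotated span of Rpe65 begins at 159599075, inside its window (chr3:159598931-159599180), and its motif lies within that span, so that its window is shown in part.
Rpe65, chr3:159599127-159599156, plus strand: ctcctccaataaGGATTAgattgcatacaa
Rgr, chr14:37049015-37049264, minus strand: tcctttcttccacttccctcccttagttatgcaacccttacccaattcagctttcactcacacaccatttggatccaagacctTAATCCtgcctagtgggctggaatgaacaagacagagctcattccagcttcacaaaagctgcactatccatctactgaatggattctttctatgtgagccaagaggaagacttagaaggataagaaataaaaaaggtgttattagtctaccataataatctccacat
Lrat, chr3:82903975-82904224, minus strand: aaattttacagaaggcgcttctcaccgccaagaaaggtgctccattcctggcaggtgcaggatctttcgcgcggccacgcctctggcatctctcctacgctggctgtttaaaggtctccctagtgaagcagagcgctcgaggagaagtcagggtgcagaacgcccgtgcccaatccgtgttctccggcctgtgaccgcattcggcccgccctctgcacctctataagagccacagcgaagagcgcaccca
Rdh12, chr12:79208663-79208912, plus strand: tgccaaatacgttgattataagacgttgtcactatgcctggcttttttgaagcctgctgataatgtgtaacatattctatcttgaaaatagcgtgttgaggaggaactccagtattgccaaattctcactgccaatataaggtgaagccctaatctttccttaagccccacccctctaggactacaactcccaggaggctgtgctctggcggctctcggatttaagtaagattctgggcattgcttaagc
In Rpe65 the motif lies on the reverse strand, 42 to 37 bases before the start used for the window, and in Rgr on the forward strand, 167 to 162 bases before it. Rpe65 and Rgr had mean log2 fold changes of 1.72 and 1.57, and Lrat and Rdh12 of 1.37 and 0.90.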

How the data were processed

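Gene expression in mouse lens epithelia was measured on 4 Affymetrix arrays. The deposited values are log2 signals that the authors normalized between arrays with Affymetrix Expression Console. Sources used here give neither its version nor the background correction and summarization. The study's methods name a human array, whereas the probe sets carry mouse annotation, which was used. Of 28944 probe sets, 21789 had 1 gene symbol, 1621 several and 5534 none, and all 10 genes matched the RefSeq table by gene ID. Groups and experiments were taken from sample titles, where the arrays of experiment 1 carry no number.

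Differences between UVB and control arrays were tested two-sided with limma 3.58.1 (R 4.3.3), with the Benjamini-Hochberg adjustment over all probe sets and no filter on low signals. The pairing comes from the methods, in which both eyes of the same mice were compared. Deviations of same-numbered arrays correlated at -0.998, which the equal experiment sums produce. The methods call the 2 experiments independent. P-values measure the spread left in these 4 arrays, whose experiment sums are equal, and the spread that limma shares among probe sets. Spread between the experiment means is not in them, and the number of arrays limits the precision.

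The genes, the lists and the tests were chosen with earlier results of these data known. Named genes were all 10, then up to 4 called genes per list with the largest changes, or the 2 largest where none was called, and the 5 nearest neighbours of Rpe65 and Rdh12. Alternatives were the block, other variance priors, the methods' t-test, 3 scalings, filters, probe set means, leaving out arrays and other thresholds.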

Additional observations from a re-analysis of the deposited data

How the results depend on the processing

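The call of 4 genes past 1.8-fold and p 0.01 became 4 with the experiment as a block and 5 with a robust prior, with quantile normalization and with 1.5-fold. It became 6 with an unadjusted p of 0.05. As experiment sums were equal, a left-out array follows from the arrays that remain, so results without single arrays are no separate check. The gene gained with a robust prior and with quantile normalization was Lrat, and with 1.5-fold it was Rlbp1. The 7 genes higher at an adjusted p of 0.05 in limma became 0 with the experiment as a block and 0 without each of the 4 arrays in turn (range 0 to 0). At an unadjusted p under 0.05, 8 were higher with the block, 8 when an array of experiment 1 was left out and 10 when one of experiment 2 was, and the methods' t-test gave 8 (5 after adjustment). The 3 genes above Rdh12 became 4 with the block, 3 to 4 when an array was left out, 2 with the methods' t-test, where Rgr had an adjusted p of 0.0642, and 0 with the block and no shared spread. No log2 fold change of the 10 genes changed sign, and the lowest was 0.34. Quantile normalization, equal 75th percentiles and centring moved the median of all probe sets to between -0.04 and 0. Each gene has 1 probe set, so averaging probe sets changed none of the 10 values. The number of arrays limits the precision.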
